A study of Mus musculus with 6 samples.

Results

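The genes described here belong to the unfolded protein response of the endoplasmic reticulum (ER) and to the integrated stress response. They are 34 genes listed by symbol, all of which were found among the 23808 genes of the table. They were taken as a chaperone arm of 14 genes of ER folding and quality control, a group of 4 sensors and transducers, and an ATF4 arm of 16 genes. The list was not chosen by a measured difference, but it was drawn up with earlier results of these data known. Heart mRNA of WT female mice was sequenced, with 3 libraries from normal chow (NC) and 3 from a high-fat diet (HFD). Both diets ran from week 4 of age until week 12. The title places the comparison in a study of polycystic ovary syndrome, and the labels of these libraries name no agent other than the diet. The labels name no strain, chamber of the heart or pooling of animals, and they do not say whether each library is a different animal. P-values therefore measure only how these libraries vary, and that variation may be technical. Values are FPKM, fragments scaled to gene length and library size, as deposited by the authors, so that levels of different genes can be set side by side per length.

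Proteins that enter the ER are folded by chaperones and disulfide isomerases, and misfolded ones are returned to the cytosol for degradation. When folding capacity falls short, the membrane sensors IRE1 (gene Ern1), PERK (gene Eif2ak3) and ATF6 start the unfolded protein response. IRE1 splices the Xbp1 mRNA, and XBP1 and the cleaved form of ATF6 then raise chaperone genes, while PERK phosphorylates the initiation factor eIF2. That phosphorylation, which other kinases also carry out on amino acid shortage or mitochondrial stress, slows translation in general but favours translation of the Atf4 mRNA. ATF4 in turn raises genes of amino acid synthesis, one-carbon metabolism and stress signalling. In heart muscle these pathways are studied in ischaemia, pressure overload and metabolic disease. FPKM per gene does not tell spliced from unspliced Xbp1, and it measures neither phosphorylation nor protein.

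Of the 34 genes, 30 reached 1 FPKM as the mean of the 6 libraries and were tested. All 14 genes of the chaperone arm and all 4 sensors and transducers were tested, but only 12 of the 16 ATF4-arm genes. Phgdh, Sesn2, Slc7a11 and Fgf21 were below that level. The smallest mean among tested members was that of Mthfd2, 1.04 FPKM, and the largest mean below the limit was that of Phgdh, 0.964 FPKM. The summed FPKM lay between 694956 and 739406 in the NC libraries. It was 576334 in HFD 1 and at most 708120 in the other HFD libraries. The depth is unknown, since FPKM gave back no read counts. All 10 cardiomyocyte markers, among them Myh6, Tnnt2 and Ryr2, were present in every library at 17.1 FPKM or more, which fits a heart. Atrial markers differed widely within both diets, with summed levels of 347.4 to 13840 FPKM on NC and 430.7 to 7082 FPKM on HFD, and adipocyte markers did so too (3.51 to 60.5 and 0.868 to 47.5 FPKM). The part of these differences in the results was not tested.

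No gene passed the test over the whole table. By limma, 0 of 11456 genes (0%) had a Benjamini-Hochberg adjusted p under 0.05, and 0 of the 30 tested members did. A count of 0 does not show that no gene differed, and the median SE of a log2 fold change was 0.24. Unadjusted p-values under 0.05 were found for 415 genes, or 3.62% of those tested, 1.32% with higher and 2.3% with lower levels on HFD. Of the 30 members 4 were among them, 3 lower (Creld2, Sdf2l1 and Manf) and 1 higher (Herpud1), all from the chaperone arm. In 931 genes (8.13%) the values of the diets did not overlap. This was so for 3 of the 30 members, Creld2 and Sdf2l1 with HFD below and Herpud1 with HFD above, a share close to that of all genes. The adjusted p of every tested member was 1 after rounding.

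**Figure D1:**
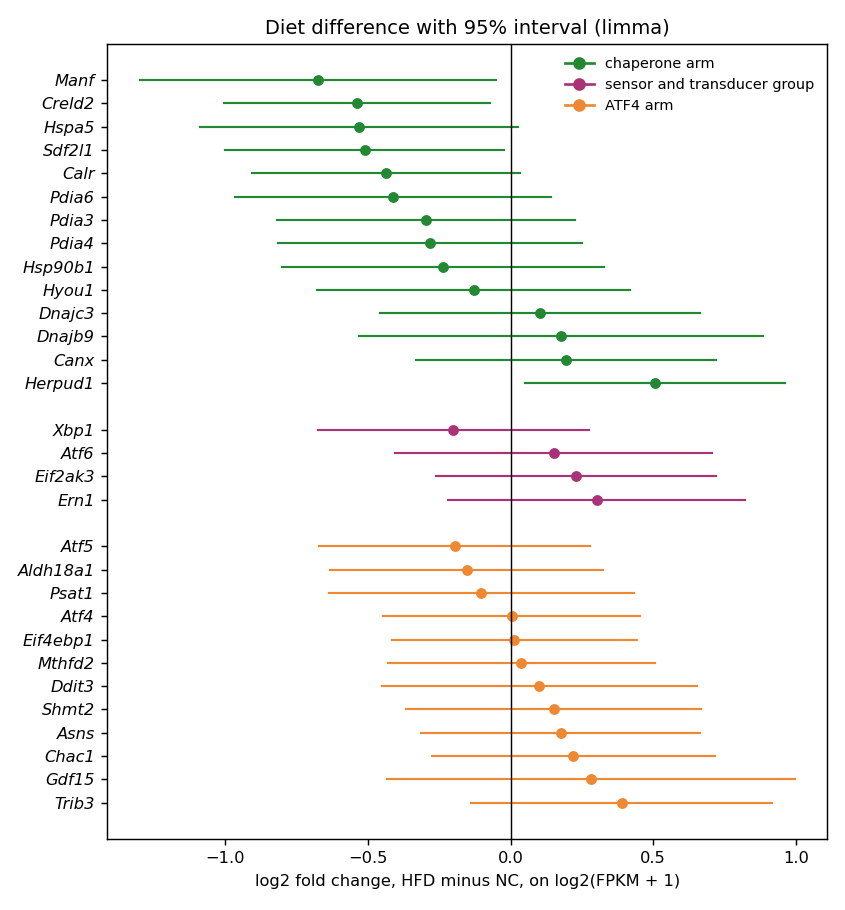
Log2 fold change between the diets (HFD minus NC, on log2(FPKM + 1)) for the 30 tested members, with the 95% interval of the limma fit as bars and colours for the 3 groups of genes. In the chaperone arm 10 of 14 points lie below 0, and in the ATF4 arm 9 of 12 lie above 0.

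The chaperone arm had lower mean levels on HFD in 10 of 14 genes, with a median log2 fold change of −0.29, against −0.019 over all tested genes, of which 53.1% were lower. No gene of the arm passed the adjusted test, so these are directions of means and not called changes. The median depended on single libraries and was −0.13 without NC 1 and −0.099 without HFD 2. When FPKM were rescaled without mitochondrially encoded genes, 40.3% of all genes were lower and the arm still had 10 of 14 lower, with a median of −0.21. The levels of these genes were spread from 3.84 FPKM for Hyou1 to 96.5 FPKM for Calr, as means over the 6 libraries.

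The promoters of some genes of the chaperone arm hold a sequence element of the unfolded protein response. The genes were not chosen by sequence but as genes of that response, so the element and the list are not independent. The ER stress response element, which is CCAAT, 9 bases of any kind and then CCACG, is bound by the factor NF-Y at its first part and by ATF6 or XBP1 at its last part. It was searched on both strands of RefSeq promoter windows (GRCm38.p6, the assembly called mm10) from 250 bases before to 50 after each gene's start, of which 30 of the 34 genes had at least 1. It was found in 7 of 12 chaperone-arm genes with a window, Calr, Canx, Creld2, Dnajc3, Hsp90b1, Hspa5 and Pdia6. It was found in 0 of 3 sensors and transducers and in 0 of 15 ATF4-arm genes, and in 0.119% of all 32851 windows. A shorter form, ATTGG, 1 base of any kind and CCACG, searched after the first results were seen, occurred in 0.0365% of all windows and in 1 gene of the arm, Herpud1. Both forms contain CCACG, which alone was in 32.8% of all windows and in 11 of the 12 genes. An element of the unfolded protein response bound by XBP1, TGACGTGG, was found in 0 of 12, 0 of 3 and 0 of 15 genes and in 0.676% of all windows. Windows are shown for the 3 members whose diets did not overlap (Creld2, Sdf2l1 and Herpud1) and for 3 genes chosen because they hold the full element and form the ratios below (Hspa5, Calr and Canx), 5′ to 3′ on the gene's strand. Capitals mark a matching element, and Sdf2l1 has none.
Hspa5, chr2:34771840-34772139, plus strand: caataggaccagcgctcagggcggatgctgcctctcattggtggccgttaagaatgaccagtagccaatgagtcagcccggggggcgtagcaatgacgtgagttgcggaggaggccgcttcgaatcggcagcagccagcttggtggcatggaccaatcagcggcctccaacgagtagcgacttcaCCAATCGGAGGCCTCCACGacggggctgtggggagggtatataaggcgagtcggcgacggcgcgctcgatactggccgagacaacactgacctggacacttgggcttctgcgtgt
Calr, chr8:84846882-84847181, minus strand: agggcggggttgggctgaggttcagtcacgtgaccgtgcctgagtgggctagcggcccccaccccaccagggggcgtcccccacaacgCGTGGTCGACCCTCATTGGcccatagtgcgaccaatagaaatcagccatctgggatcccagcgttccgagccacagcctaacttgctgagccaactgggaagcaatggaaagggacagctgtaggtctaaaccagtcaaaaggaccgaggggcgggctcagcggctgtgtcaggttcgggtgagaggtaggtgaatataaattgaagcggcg
Canx, chr11:50325624-50325923, minus strand: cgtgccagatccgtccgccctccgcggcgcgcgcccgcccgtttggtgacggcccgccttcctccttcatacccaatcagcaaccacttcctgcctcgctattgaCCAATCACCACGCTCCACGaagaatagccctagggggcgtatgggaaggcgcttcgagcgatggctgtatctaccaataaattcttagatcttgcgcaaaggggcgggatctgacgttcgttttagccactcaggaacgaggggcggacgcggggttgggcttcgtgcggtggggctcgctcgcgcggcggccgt
Creld2, chr15:88819396-88819695, plus strand: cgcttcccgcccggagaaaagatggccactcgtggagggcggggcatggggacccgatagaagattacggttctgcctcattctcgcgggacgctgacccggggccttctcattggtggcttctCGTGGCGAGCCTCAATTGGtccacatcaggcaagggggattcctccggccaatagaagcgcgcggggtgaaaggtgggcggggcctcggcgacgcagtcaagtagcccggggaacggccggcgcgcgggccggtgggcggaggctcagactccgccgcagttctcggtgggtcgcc
Herpud1, chr8:94386179-94386478, plus strand: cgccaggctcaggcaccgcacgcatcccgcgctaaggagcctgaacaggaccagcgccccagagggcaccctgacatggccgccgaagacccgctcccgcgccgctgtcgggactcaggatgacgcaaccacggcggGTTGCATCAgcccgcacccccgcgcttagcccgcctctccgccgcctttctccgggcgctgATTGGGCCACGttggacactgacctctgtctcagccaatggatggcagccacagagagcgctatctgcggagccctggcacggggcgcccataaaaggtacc
Sdf2l1, chr16:17132334-17132633, minus strand: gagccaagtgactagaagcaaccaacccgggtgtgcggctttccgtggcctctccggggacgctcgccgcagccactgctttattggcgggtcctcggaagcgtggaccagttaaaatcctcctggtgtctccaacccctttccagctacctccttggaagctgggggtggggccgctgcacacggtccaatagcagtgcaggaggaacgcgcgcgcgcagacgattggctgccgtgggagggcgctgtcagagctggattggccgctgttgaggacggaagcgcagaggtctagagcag

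The element began 65 bases before the RefSeq start of Hspa5, 162 before Calr, 145 before Canx and 126 before Creld2. It was on the opposite strand in Calr and Creld2. All distances in the text are from RefSeq starts. GENCODE gene positions can begin elsewhere, and that of Hspa5 begins upstream of its RefSeq start and of the element. In Herpud1 the shorter form began 52 bases before the start, and the capitals further upstream mark an amino acid response element on the opposite strand, 113 bases before the start. Of the 7 genes with the full element, 5 (Calr, Creld2, Hsp90b1, Hspa5 and Pdia6) had lower means on HFD and 2 (Canx and Dnajc3) higher ones, beside 10 and 4 of the 14 genes of the whole arm. Outside the list, 7 tested genes held it and 5 of these had higher means on HFD (median log2 fold change 0.13). Among them were Syvn1, a ubiquitin ligase of ER-associated degradation (log2 fold change 0.15, SE 0.25), and Acacb, which makes malonyl-CoA at mitochondria (log2 fold change 0.33, SE 0.28), both named after their values were seen. A match describes the letters of the window and shows no binding.

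Hspa5 encodes BiP, the ER member of the HSP70 family and the central chaperone that holds the sensors inactive. It was at 121, 73.6 and 68.2 FPKM on NC against 59.4, 46.6 and 71.3 FPKM on HFD. NC 1 stood above the other 5 libraries, and HFD 3 lay between the NC values, so the diets overlapped. The means were 87.5 ± 28.9 (NC) against 59.1 ± 12.4 FPKM (HFD), each ± SD over n = 3, with a log2 fold change of −0.53, SE 0.26 (unadjusted p = 0.06, limma). Leaving out NC 1 brought the log2 fold change to −0.28. Hsp90b1, the ER form of HSP90 (GRP94), was at 83.4, 53.6 and 44.7 FPKM on NC against 53.97, 38.97 and 57.6 FPKM on HFD (log2 fold change −0.24, SE 0.26). It was likewise highest in NC 1 and lowest in HFD 2, and its log2 fold change was 0.015 without NC 1. Its exons overlap those of 1810014B01Rik on the opposite strand and of Gm15344 and Gm25745 on the same one. By GENCODE annotation of mm10, Hspa5 lies on chromosome 2 from 34771970 to 34777547 and no exon of another gene overlaps it.

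Calreticulin (Calr) and calnexin (Canx) are related lectin chaperones that hold newly made glycoproteins, calreticulin being soluble and calnexin membrane-bound. Calr was at 132, 111 and 91.8 FPKM on NC against 80.95, 69.2 and 94.96 FPKM on HFD (log2 fold change −0.44, SE 0.22, unadjusted p = 0.0651, limma). HFD 1 and HFD 2 lay below all NC libraries, while HFD 3 lay above NC 3. Canx was at 39.4, 31.9 and 31.1 FPKM on NC against 42.7, 27.95 and 49.4 FPKM on HFD (log2 fold change 0.19, SE 0.24). Here HFD 1 and HFD 3 lay above all NC libraries and HFD 2 below them, and without HFD 3 the log2 fold change was 0.026. Both genes are members of the same folding cycle, and their ratio within a library does not depend on how libraries are scaled. Canx divided by Calr was 0.299, 0.289 and 0.338 in the NC libraries and 0.527, 0.404 and 0.521 in the HFD libraries (0.309 ± 0.0262 and 0.484 ± 0.0692, SD, n = 3 each). All 3 HFD ratios lay above all 3 NC ratios (exact two-sided permutation p = 0.1, the smallest that 3 against 3 libraries allow). Calr lies on chromosome 8 from 84841850 to 84846934 and Canx on chromosome 11 from 50293961 to 50325673 (mm10), both without exon overlap.

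The disulfide isomerases catalyse the forming and reshuffling of disulfide bonds. Pdia3, which works with the lectin chaperones, was at 60.2, 39.6 and 41.99 FPKM on NC against 43.5, 28.97 and 42.1 FPKM on HFD (log2 fold change −0.30, SE 0.24). Pdia4 was at 12.96, 9.803 and 8.93 FPKM on NC against 9.74, 6.15 and 9.85 FPKM on HFD (log2 fold change −0.28, SE 0.24), and Pdia6 at 43.6, 25.9 and 26.1 FPKM on NC against 21.1, 19.8 and 29.05 FPKM on HFD (log2 fold change −0.41, SE 0.25). All 3 isomerases were highest in NC 1 and lowest in HFD 2. Between the other 4 libraries, Pdia4 and Pdia6 overlapped, and Pdia3 was slightly higher on HFD. Without NC 1 the log2 fold changes were −0.11 for Pdia3, −0.14 for Pdia4 and −0.17 for Pdia6, and without HFD 2 they were −0.11, −0.084 and −0.31. Exons of Pdia3 overlap those of Catsper2 and exons of Pdia6 those of Atp6v1c2, both on the opposite strand. Exons of Pdia4, Dnajb9, Eif2ak3 and Shmt2 each overlap those of 1 further gene (Mir704, Mir5627, Gm43292 and Ndufa4l2). The sources used here do not give the use of strand.

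Creld2 and Sdf2l1, small soluble ER proteins that are known as sensitive targets of the unfolded protein response, were the members in which the diets separated with HFD below. Creld2 was at 8.24, 7.05 and 7.32 FPKM on NC against 4.43, 4.53 and 5.72 FPKM on HFD. Every HFD value lay below every NC value, with means of 7.54 ± 0.621 (NC) against 4.896 ± 0.717 FPKM (HFD), each ± SD over n = 3 and a log2 fold change of −0.54, SE 0.21 (unadjusted p = 0.0272, adjusted p = 1, limma). Sdf2l1 was at 6.196, 4.41 and 5.66 FPKM on NC against 3.25, 4.099 and 3.12 FPKM on HFD (log2 fold change −0.51, SE 0.22, unadjusted p = 0.0414, adjusted p = 1, limma). Its lowest NC value, in NC 2, was close to its highest HFD value, in HFD 2. With each of the 6 libraries left out in turn, log2 fold changes lay between −0.64 and −0.48 for Creld2 and between −0.63 and −0.43 for Sdf2l1. Over all genes 4.88% had HFD entirely below NC.

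Manf encodes an ER protein that is also secreted and protects cells under ER stress. It was at 63.00, 40.9 and 26.3 FPKM on NC against 26.8, 21.2 and 27.99 FPKM on HFD, the largest fold change of the members (log2 fold change −0.68, SE 0.29, unadjusted p = 0.0361, adjusted p = 1, limma). NC 1 and NC 2 lay above all HFD libraries, but NC 3 was below HFD 1 and HFD 3. Without NC 1 its log2 fold change was −0.37, and without NC 3 it was −0.98. Exons of Manf overlap those of 3 annotated genes, Rbm15b on the same strand and Dcaf1 and 4930524O07Rik on the opposite one, so that its reads may not all be its own.

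The co-chaperones of BiP had smaller differences, of either sign. Dnajb9, a J-domain protein that also restrains IRE1, was at 11.6, 7.06 and 9.805 FPKM on NC against 12.5, 5.76 and 16.3 FPKM on HFD (log2 fold change 0.18, SE 0.33). Its highest value was in HFD 3 and its lowest in HFD 2, so that both ends of its range were on the same diet, and the log2 fold change was −0.11 without HFD 3 and 0.57 without HFD 2. Dnajc3, another J-domain partner of BiP, ranged from 4.69 FPKM in NC 2 to 8.34 FPKM in HFD 3 (log2 fold change 0.10, SE 0.26). Hyou1, a nucleotide exchange factor for BiP, was at 4.07, 3.54 and 4.37 FPKM on NC against 2.57, 3.21 and 5.28 FPKM on HFD (log2 fold change −0.13, SE 0.25), lowest in HFD 1 and highest in HFD 3.

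Herpud1, a membrane protein of ER-associated degradation, was the member in which the diets separated with HFD above. It was at 61.2, 55.5 and 64.1 FPKM on NC against 74.4, 79.2 and 107 FPKM on HFD. The highest NC value, in NC 3, lay below the lowest HFD value, in HFD 1. The means were 60.3 ± 4.37 (NC) against 86.97 ± 17.8 FPKM (HFD), each ± SD over n = 3, with a log2 fold change of 0.51, SE 0.21 (95% interval 0.049 to 0.96, unadjusted p = 0.0326, adjusted p = 1, limma). With each of the 6 libraries left out in turn, the log2 fold change lay between 0.35 (without HFD 3) and 0.61. Over all genes 3.25% had HFD entirely above NC. Herpud1 divided by Hspa5 was 0.507, 0.754 and 0.940 in the NC libraries and 1.25, 1.7 and 1.5 in the HFD libraries, without overlap (exact two-sided permutation p = 0.1, the smallest possible). Hsp90b1 divided by Hspa5 was 0.691, 0.728 and 0.656 on NC and 0.908, 0.837 and 0.807 on HFD, again without overlap (exact permutation p = 0.1). These ratios and that of Canx and Calr were chosen after their values were seen. A permutation test was run on 8 ratios, and adjusted over these by Benjamini-Hochberg each of the 3 had an exact permutation p of 0.267. That adjustment does not cover the choice among all 91 pairs of the arm, and no ratio is called different. Herpud1 lies on chromosome 8 from 94386438 to 94395377 (mm10), with no overlapping exon.

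**Figure D2:**
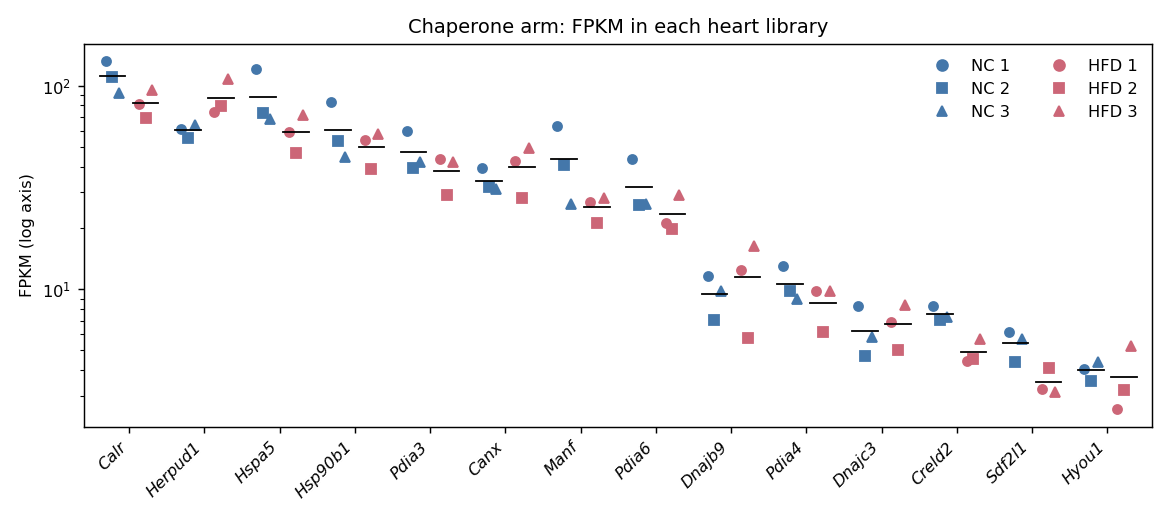
FPKM (log axis) of the 14 chaperone-arm genes in each library, NC in blue and HFD in red with a marker shape for each replicate number, and diet means as black lines. Creld2 and Sdf2l1 have all HFD values below NC and Herpud1 has all above, while NC 1 is the highest library in 9 of the 14 genes and HFD 2 the lowest in 9.

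Ratios between chaperone genes were also compared within each library. Of the 91 pairs among the 14 genes, the within-library difference of log2 levels did not overlap between the diets in 28 (30.8%), against 10.9% of all pairs of tested genes 4 of 66 pairs (6.06%) in the ATF4 arm and 2 of 6 pairs (33.3%) among the sensors and transducers. Pairs share genes and are not independent, and no test was made of these shares. Herpud1 was the higher partner on HFD in 9 of its 13 pairs, Canx in 8 and Dnajc3 in 7. Hspa5 was the lower partner in 5 of its 13 pairs, and Creld2 and Manf in 4 each. In no pair was Herpud1, Canx or Dnajc3 the lower partner, or Hspa5, Creld2 or Manf the higher one, among pairs that separated.

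**Figure D3:**
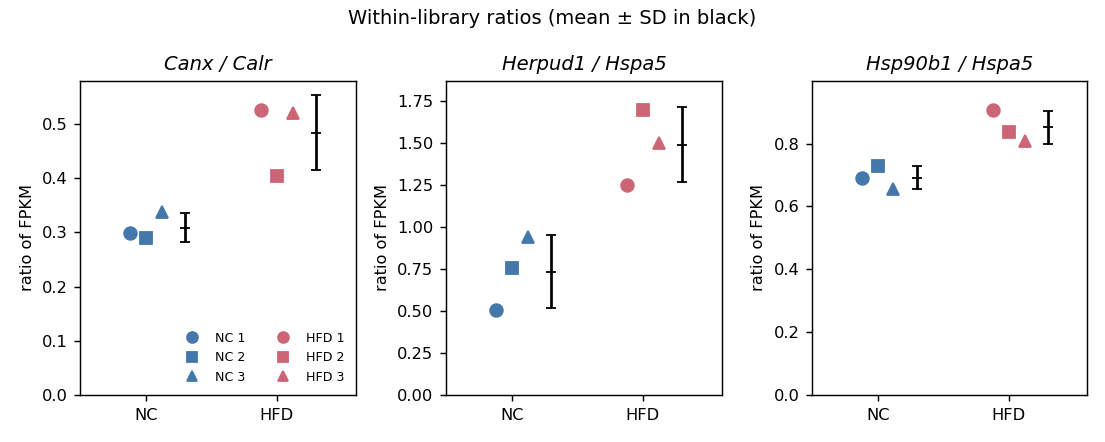
Within-library ratios of FPKM for Canx to Calr, Herpud1 to Hspa5 and Hsp90b1 to Hspa5, with a point for each library (axes start at 0) and the mean ± SD of each diet in black. In each ratio the 3 HFD points lie above the 3 NC points, as for Canx to Calr with 0.404 to 0.527 against 0.289 to 0.338.

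The sensors and transducers did not separate the diets. Xbp1 was at 31.2, 23.6 and 29.98 FPKM on NC against 19.9, 25.9 and 27.7 FPKM on HFD (log2 fold change −0.20, SE 0.22), lowest in HFD 1 and highest in NC 1, and −0.064 without HFD 1. The sensor genes had lower levels than Xbp1. Atf6 was at 4.98, 3.89 and 3.91 FPKM on NC against 4.39, 3.53 and 7.05 FPKM on HFD (log2 fold change 0.15, SE 0.26). Ern1 was at 0.981, 0.502 and 1.13 FPKM on NC against 0.976, 1.08 and 1.89 FPKM on HFD (log2 fold change 0.30, SE 0.24), and Eif2ak3 at 1.56, 0.991 and 1.51 FPKM on NC against 1.37, 1.71 and 2.22 FPKM on HFD (log2 fold change 0.23, SE 0.23). All 3 sensor genes had their highest value in HFD 3, and Ern1 and Eif2ak3 their lowest in NC 2. Their order depended on scaling. With each of the 3 other scalings of libraries, the HFD values of Ern1 and of Eif2ak3 lay entirely above NC, where 10.4 to 10.7% of all genes did not overlap. The log2 fold change of Atf6 was −0.083 without HFD 3.

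The ATF4 arm had 9 of 12 tested genes with higher and 3 with lower means on HFD, at a median log2 fold change of 0.069. None passed at an unadjusted p of 0.05, and in all 12 the diets overlapped. The sign of the median itself was not stable. It was −0.001 without NC 2, −0.023 without HFD 2 and −0.021 without HFD 3, with 6 of 12, 6 of 13 and 5 of 10 genes higher. The size of the median also depended on the filter. With all 6 libraries and no filter on low values it was 0.0125, with 10 of 15 genes higher. At a mean of at least 5 FPKM it was 0.0125, with 4 of 5 genes higher. The interval of the difference, rather than the p, says what sizes the data leave room for. For Atf4 the 95% interval −0.45 to 0.45 leaves room for lower and for higher levels on HFD alike, and a p above the threshold does not show that the levels were equal.

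Of the transcription factors, Atf4 was at 38.05, 33.5 and 33.96 FPKM on NC against 29.3, 36.8 and 40.4 FPKM on HFD (log2 fold change 0.0032, SE 0.21). Both the lowest and the highest library were on HFD. Atf5, a related factor induced by mitochondrial stress, was at 25.9, 23.8 and 27.9 FPKM on NC against 17.4, 24.8 and 25.97 FPKM on HFD (log2 fold change −0.20, SE 0.22), with HFD 1 below the other 5 libraries, and −0.024 without HFD 1. Ddit3, which encodes CHOP, a factor of the late and pro-apoptotic response, was at 20.2, 24.2 and 19.2 FPKM on NC against 15.9, 31.6 and 23.1 FPKM on HFD (log2 fold change 0.10, SE 0.25). HFD 2 was the highest library and HFD 1 the lowest, and without HFD 2 the log2 fold change was −0.13. Exons of Ddit3 overlap those of Mars and Gm4189 on the opposite strand and of a second annotated Ddit3 gene on the same strand, and exons of Atf5 those of Nup62 and Il4i1 on the opposite strand. Trib3, a pseudokinase induced by ATF4 and CHOP that inhibits insulin signalling, was at 2.44, 2.06 and 1.57 FPKM on NC against 2.897, 3.94 and 2.16 FPKM on HFD. It had the largest difference of the arm (log2 fold change 0.39, SE 0.24, 95% interval −0.14 to 0.92), with HFD 1 and HFD 2 above all NC libraries and HFD 3 between NC 2 and NC 1. Without HFD 2 the log2 fold change was 0.23, and without HFD 3 it was 0.55.

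Among the metabolic targets, Asns, the asparagine synthetase, was at 1.73, 1.65 and 1.05 FPKM on NC against 1.55, 2.23 and 1.598 FPKM on HFD (log2 fold change 0.17, SE 0.22), highest in HFD 2. The serine synthesis gene Psat1 was at 2.17, 1.55 and 2.71 FPKM on NC against 1.27, 2.37 and 2.16 FPKM on HFD (log2 fold change −0.10, SE 0.25), and Phgdh, the first enzyme of that route, at 1.29, 0.465 and 1.44 FPKM on NC against 1.08, 0.611 and 0.889 FPKM on HFD. Both were low and overlapped. The mitochondrial one-carbon genes Shmt2 and Mthfd2 were highest in HFD 3. Shmt2 was at 6.98, 8.12 and 7.45 FPKM on NC against 6.43, 8.15 and 11.4 FPKM on HFD (log2 fold change 0.15, SE 0.24) and Mthfd2 at 0.957, 0.951 and 1.11 FPKM on NC against 0.751, 1.04 and 1.43 FPKM on HFD (log2 fold change 0.037, SE 0.21). Aldh18a1, of proline synthesis, ranged from 1.16 FPKM in HFD 2 to 2.10 FPKM in NC 1 (log2 fold change −0.15, SE 0.22). Chac1, which degrades glutathione, was at 1.61, 1.75 and 2.72 FPKM on NC against 2.298, 2.32 and 2.85 FPKM on HFD (log2 fold change 0.22, SE 0.23), lowest in NC 1 and NC 2. Slc7a11, the cystine importer, was at most 0.0362 FPKM and was listed at 0 in HFD 1 and HFD 2. Sesn2, a stress-induced inhibitor of mTORC1, lay between 0.387 and 0.950 FPKM.

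The secreted factors of the integrated stress response were low in these hearts. Fgf21 was listed at 0 in all 6 libraries, and with unknown depth no upper limit can be given. Gdf15 was at 0.571, 1.82 and 0.246 FPKM on NC against 1.63, 0.431 and 1.62 FPKM on HFD, a 7.39-fold range, with high and low libraries on both diets (log2 fold change 0.28, SE 0.33). Its log2 fold change was 0.029 without NC 3 and 0.57 without HFD 2. By contrast Eif4ebp1, the ATF4 target that restrains cap-dependent translation, was among the more abundant members at 40.2, 37.05 and 39.3 FPKM on NC against 34.4, 43.9 and 39.7 FPKM on HFD (log2 fold change 0.012, SE 0.20). Its 1.27-fold range over the 6 libraries was the narrowest of the members.

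**Figure D4:**
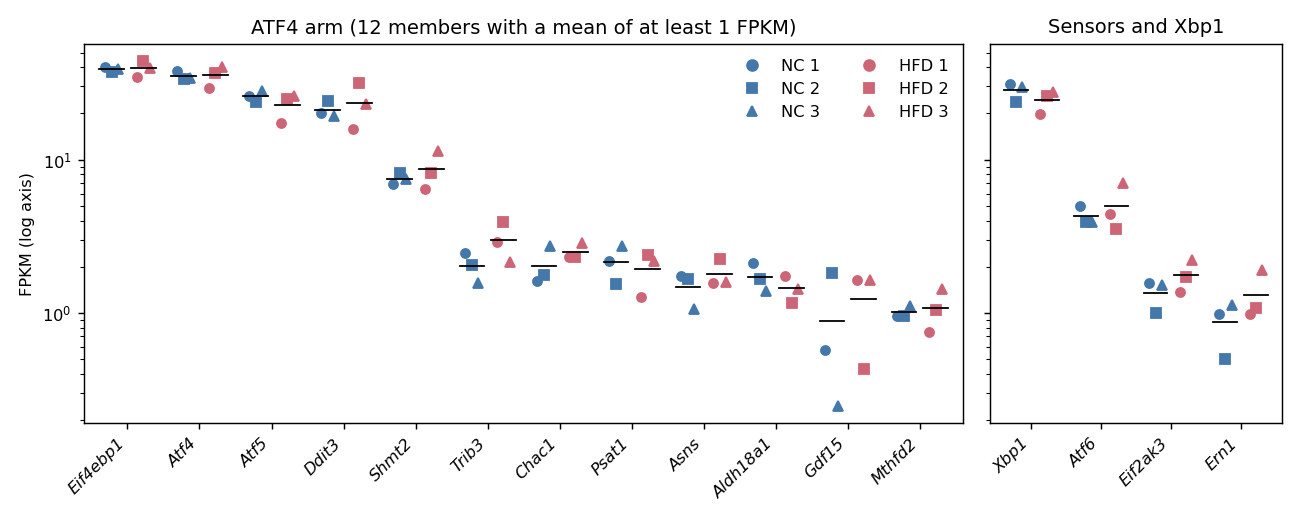
FPKM (log axis) in each library for the 12 tested ATF4-arm genes (left) and for the sensors and Xbp1 (right), NC in blue and HFD in red, with diet means as black lines. In every gene the ranges of the diets overlap, and Gdf15 has the widest spread.

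Elements of the type bound by ATF4 with C/EBP partners, TGATGNAAN, were found on either strand in 5 of 15 ATF4-arm genes with a window (Asns, Chac1, Fgf21, Slc7a11 and Trib3), in 1 of 12 chaperone-arm genes (Herpud1) and in 3.95% of all windows. The windows of Asns and Trib3 are shown because both are classical targets, with the element in capitals.
Asns, chr6:7693160-7693459, minus strand: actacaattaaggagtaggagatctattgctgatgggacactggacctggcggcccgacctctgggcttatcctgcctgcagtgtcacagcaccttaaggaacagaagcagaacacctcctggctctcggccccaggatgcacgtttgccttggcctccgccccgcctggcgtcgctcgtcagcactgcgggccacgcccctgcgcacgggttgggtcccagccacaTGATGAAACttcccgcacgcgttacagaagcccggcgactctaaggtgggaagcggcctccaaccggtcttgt
Trib3, chr2:152344011-152344310, minus strand: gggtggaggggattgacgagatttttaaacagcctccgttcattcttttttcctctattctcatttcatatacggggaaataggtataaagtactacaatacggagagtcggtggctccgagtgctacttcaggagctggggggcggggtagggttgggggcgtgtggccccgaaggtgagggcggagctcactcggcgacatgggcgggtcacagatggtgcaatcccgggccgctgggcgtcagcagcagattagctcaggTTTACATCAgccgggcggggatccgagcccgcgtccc

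The element began 23 bases before the RefSeq start of Asns. In Trib3 it lay on the opposite strand, 13 bases after the RefSeq start. By GENCODE the order of start and element is reversed in both. Asns begins at 7693254, upstream of its element, and Trib3 at 152344032, downstream of its element. Among all tested genes 229 held this short element in a window, 102 with higher and 127 with lower means on HFD (median log2 fold change −0.028).

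The 2 arms differed most in NC 1 and HFD 2. Relative to the 6-library mean of each gene, on log2(FPKM + 1), the chaperone arm was on average at 0.41, −0.047 and −0.035 in NC 1 to NC 3 and at −0.098, −0.38 and 0.15 in HFD 1 to HFD 3. The ATF4 arm was at −0.022, −0.0051 and −0.087 in NC 1 to NC 3 and at −0.12, 0.097 and 0.14 in HFD 1 to HFD 3. Both arms had the same sign in the other 4 libraries. HFD 2 held the lowest value in 9 of 14 chaperone genes and the highest in 4 of 12 ATF4-arm genes, Ddit3, Trib3, Asns and Eif4ebp1. HFD 1 held the lowest value in 7 of the 12 ATF4-arm genes. It also had the lowest summed FPKM, and the part of that in its low values was not tested.

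**Figure D5:**
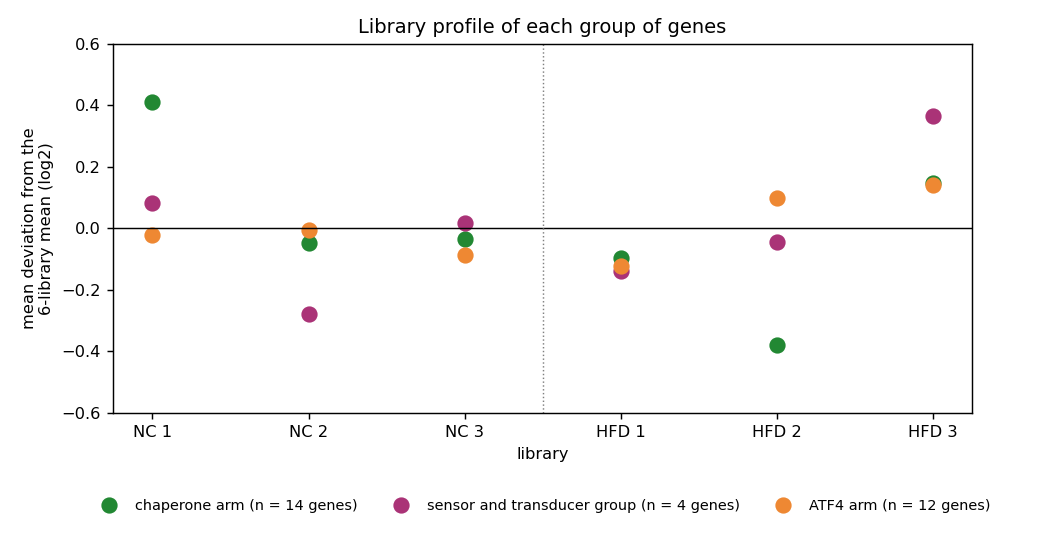
Mean deviation of each group of genes from its 6-library mean (log2(FPKM + 1)) by library, with NC to the left and HFD to the right of the dotted line. The chaperone arm is highest in NC 1 (0.41) and lowest in HFD 2 (−0.38), where the ATF4 arm lies above 0.

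Other genes of these pathways were read from wider lists. Of 50 tested genes of ER folding, translocation and degradation outside the 34, 35 had lower means on HFD and 15 higher, at a median log2 fold change of −0.11, and 0 passed the adjusted test. The smallest p were those of Creb3l1, an ER-membrane transcription factor of collagen-secreting cells, at 2.11, 1.33 and 2.66 FPKM on NC against 0.691, 0.3596 and 0.921 FPKM on HFD (log2 fold change −0.86, SE 0.24), and Ssr2, a subunit of the translocon-associated complex, at 40.1, 32.3 and 34.03 FPKM on NC against 21.02, 24.4 and 26.98 FPKM on HFD (log2 fold change −0.54, SE 0.21). Sdf2, the constitutive relative of Sdf2l1 (log2 fold change −0.41, SE 0.21), and Ppib, the ER cyclophilin (log2 fold change −0.34, SE 0.20), followed. In these 4 genes HFD lay entirely below NC, and in no gene of the list did it lie above, beside 4.88% and 3.25% of all genes.

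Genes of the integrated stress response outside the 34 were split, with 16 higher and 15 lower of 31 tested (median 0.022), and 0 passed the adjusted test. HFD lay entirely above NC in 5 of them and entirely below in none, beside 3.25% and 4.88% of all genes. These were Cebpg, the C/EBP partner of ATF4, at 7.74, 5.78 and 5.199 FPKM on NC against 9.89, 9.64 and 8.65 FPKM on HFD (log2 fold change 0.53, SE 0.22), Eif2ak2, the kinase PKR, which interferon also induces, at 1.698, 1.56 and 1.33 FPKM on NC against 3.23, 2.21 and 2.45 FPKM on HFD (log2 fold change 0.51, SE 0.22), the lipoprotein receptor gene Vldlr (log2 fold change 0.41, SE 0.21), Slc3a2 and Sqstm1. Ddit4, an inhibitor of mTORC1, had a log2 fold change of 0.56, SE 0.33 with overlapping diets. Of 20 cytosolic aminoacyl-tRNA synthetases, a family that ATF4 also raises, 9 were higher and 11 lower (median −0.037), and 0 passed. The smallest p were those of Gars1, Aars1, Tars1 and Cars1, at log2 fold changes of −0.25, −0.25, 0.22 and 0.18. Of 20 cytosolic heat shock chaperones, which answer to another factor, HSF1, 10 were lower and 10 higher (median −0.0063), and 0 passed. The smallest p among them were those of the small heat shock protein genes Hspb1 (log2 fold change −0.70, SE 0.19) and Cryab (log2 fold change −0.37, SE 0.19), followed by Ahsa1 and Stip1 (−0.31 and −0.30). No difference between these lists and the chaperone arm was tested.

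Secretory cells other than heart muscle cells carry much ER, and in whole tissue fewer cells of a type and less RNA per cell cannot be told apart. Of 8 fibroblast markers 7 had lower means on HFD, with a summed level of 348.7 to 637.2 FPKM on NC and 268.9 to 544.2 FPKM on HFD. Of 6 macrophage markers all 6 had lower means on HFD (102.6 to 135.7 against 68.4 to 98.99 FPKM, without overlap). Of 10 cardiomyocyte markers 8 had lower means on HFD (24580 to 32690 against 21950 to 24060 FPKM, also without overlap), and of 6 endothelial markers all 6 had higher means (358.0 to 381.8 against 361.5 to 545.2 FPKM). All these ranges are of summed FPKM, in which the most abundant genes weigh most. Singly, HFD lay entirely below NC in 2 of 10 cardiomyocyte, 2 of 6 macrophage, 1 of 8 fibroblast and 0 of 6 endothelial markers, beside 4.88% of all genes. It lay entirely above NC in 0 of them, beside 3.25%. None of the markers in these lists was at 0 in any library, and their part in the chaperone results was not tested. The 7 plasma cell and B cell markers, cells whose ER is most developed, summed to 2.28 to 3.87 FPKM on NC and 2.68 to 3.79 FPKM on HFD, with no single value above 1.56 FPKM and 1 marker, Tnfrsf17, at 0 in a library.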

How the data were processed

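Hearts of WT mice on NC or HFD were measured by mRNA sequencing in 3 libraries per diet. The deposited table gives FPKM per gene, made by the authors. Per the submitters' processing notes, which list tools with no role or order, the authors used HISAT2 2.2.1, HTSeq 0.13.5, Trimmomatic 0.38, FastQC 0.11.9 and R 3.4.1 on the build mm10. The sources used here give neither the program behind the FPKM nor the strand setting. In the table, 4 columns without a name held 0 numeric values and were not used.

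Gene IDs were matched to symbols for 23718 of 23808 genes. Genes averaging 1 FPKM or more were fitted together as log2(FPKM + 1) with limma 3.58.1 in R 4.3.3 (linear model without block, empirical Bayes with trend, two-sided, Benjamini-Hochberg over 11456 genes, threshold 0.05). A fold change is the HFD mean minus the NC mean on this scale, which understates changes of low genes. The fit was tested on simulated data with a smaller and a larger added change. It recovered none of the smaller changes, although these exceeded the fold change of every member, and most of the larger ones. With 3 against 3 libraries the exact permutation test of a ratio cannot go below 0.1. Low values fell on no common step between libraries (at most 4.95% of ratios within a log2 tolerance of 0.02, below 0.3 FPKM), so counts were not recovered and depth, and with it counting error, is unknown. 

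The members, the wider pathway lists, the markers and the motifs were chosen with earlier results of these data known. Every member is accounted for, most with values by library. From each wider list the 4 genes with the smallest unadjusted p are named, and others named for their separation were chosen after their values were seen. Alternatives were 2 other pseudocounts, 2 other filters, 3 other scalings, 2 other variance settings, a replicate block and each library left out. Promoter windows come from RefSeq (GRCm38.p6) and gene positions from GENCODE vM21.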

Additional observations from a re-analysis of the deposited data

How the results depend on the processing

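In no setting did a member have an adjusted p under 0.05. Over all genes 73 passed with a replicate block in limma, none of them members, against 0 without it. The labels do not say whether the replicate numbers pair the libraries. For each gene, the deviation of each library from the mean of its own diet was taken on log2(FPKM + 1). Between same-numbered libraries of the diets these deviations, not the levels, correlated across genes at 0.19, 0.086 and 0.28. Within a diet the deviations of a gene sum to 0, so the correlations are not independent. The deviations of NC 1 and NC 3 correlated best with those of the HFD library of their own number, but those of NC 2 with HFD 1 (0.25). Whether the numbers mark a shared batch or day was not tested, and the fit without a block is the one reported. With a library left out, 0 to 1 gene passed (1 without NC 2). The count of members whose diets did not overlap was 3 as reported, 6 with median-of-ratios scaling, 5 with quantile normalization, 5 when rescaled without mitochondrial genes (10.6%, 10.4% and 10.7% of all genes) and 4 to 8 with a library left out, where 15.2% to 21.4% of all genes did not overlap. Members that separate with all 6 libraries do so by construction with fewer. The median log2 fold change of the chaperone arm was −0.41 to −0.099 with a library left out. That of the sensors and transducers was −0.20 at a mean of at least 5 FPKM, where Xbp1 alone was tested, and −0.083 to 0.28 with a library left out. That of the ATF4 arm was −0.023 to 0.15. The sign of 20 of 30 tested members was kept in every setting that gave a value. The other 10 turned sign only with a library left out, over ranges of −0.43 to 0.015 (Hsp90b1), −0.045 to 0.32 (Shmt2), −0.094 to 0.13 (Atf4), −0.36 to 0.045 (Hyou1), −0.25 to 0.072 (Psat1), −0.059 to 0.29 (Dnajc3), −0.068 to 0.10 (Eif4ebp1), −0.11 to 0.57 (Dnajb9), −0.13 to 0.34 (Ddit3) and −0.083 to 0.33 (Atf6). Without turning sign, Aldh18a1 (−0.24 to −0.057), Asns (0.045 to 0.25), Chac1 (0.12 to 0.38), Ern1 (0.15 to 0.41), Eif2ak3 (0.11 to 0.34) and Mthfd2 (0.018 to 0.15) also moved by over 1.5 times. So did Hspa5, Canx, Pdia3, Pdia4, Pdia6, Manf, Xbp1, Atf5, Trib3 and Gdf15, whose values with single libraries left out are given above. Causes of these shifts were not tested. Some left-out libraries took Ern1, Mthfd2 or Gdf15 below the filter and gave no value. The tested set could also gain a member. Without NC 2, Phgdh passed the filter and lay entirely below NC on HFD, and without HFD 2 the ATF4 arm had 13 tested genes. Medians and counts with a library left out are therefore not all over the same genes. The unknown depth limits the low genes most, such as Gdf15, Ern1 and Mthfd2.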
